A study of Sus scrofa with 63 samples.

Results

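The genes described here are the ribosomal protein genes of pig skin, followed after a burn with sulfur mustard, an alkylating blister agent. They were chosen by name: a symbol in the supplied array annotation that starts with RPL or RPS and a digit, or is RPSA, with the S6 kinases left out. This gave 61 genes of the 6765 that had a single symbol on the array, measured by 91 of the 23999 probe sets tested. For the 22 genes measured by more than 1 probe set, the brightest probe set on average stood for the gene. The members were 31 proteins of the large ribosomal subunit, 24 of the small subunit, 5 paralogs (RPL7L1, RPL22L1, RPL26L1, RPL36AL and RPS27L) and RPS19BP1. The rule takes in RPS19BP1 by its name, but its product binds a ribosomal protein and is not one. It was kept and is named separately, so that 55 members encode canonical proteins of the cytosolic ribosome.

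Cytosolic ribosomes are built in the nucleolus from ribosomal RNA and about equal amounts of each ribosomal protein, and the messages of these proteins are among the most abundant in any cell. Their output is controlled mainly at translation, through a pyrimidine tract at the start of the message that responds to the TOR pathway, so that their messages usually move little and together. A few paralogs that diverged from a parent gene are regulated differently: RPS27L is a known target of p53, the transcription factor activated by DNA damage. Several members, RPL5, RPL11 and RPL23 among them, are known to bind the p53 inhibitor MDM2 when ribosome assembly fails.

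Depilated abdominal skin of female Yorkshire crossbred pigs was exposed to 400 µL of neat sulfur mustard for 8 min under a template that gave 3 cm lesions, and 8 mm punch biopsies were taken at 1, 2, 4, 24, 48, 72, 168, 336 and 514 h. At each time 3 animals gave an exposed and an unexposed control biopsy each and another animal, prepared in the same way but not exposed, gave a sham biopsy, which makes 27 exposed, 27 control and 9 sham arrays. Controls thus came from unexposed skin of animals that were burned elsewhere, and no age was given. Values are log2 signals, and differences are exposed minus control on that scale unless a fold is named.

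The biopsies were mixtures of cell types, so fewer cells of a type and less RNA per cell cannot be told apart. The content of skeletal muscle varied most: the mean log2 signal of 19 measured muscle genes (of 25 listed), called the muscle score here, ran from 6.98 to 13.60 in exposed, 7.17 to 13.58 in control and 7.19 to 12.81 in sham arrays. Keratinocyte markers were bright in control skin, where the mean of 5 measured differentiation genes (of 15 listed) was 11.46 to 13.15, and fell as low as 9.03 in exposed skin. The signals have no zero, so no marker could be read as absent. The spread between 2 arrays of a group had a median of 0.34 (SD of the difference over all probe sets) and of 0.064 over the bright members. The labels do not say which animal an array came from, so p values measure the spread between these samples.

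Most members gave very bright and steady signals. Of the 61 genes 51 had a mean of 13 or more, and 55 of the 177 probe sets on the array that reached this brightness belonged to a member, where the highest value of any probe set on any array was 14.54. Such signals lie near the top of the scale, and whether they still rise in proportion to the RNA was not tested, so small differences of bright members are stated as differences of signal. The paralogs and RPS19BP1 were dimmer, with means from 9.90 (RPS19BP1) to 12.91 (RPL22L1). Another 4 members, RPL26, RPL30, RPL37 and RPS15A, had single probe sets with means of 5.81 to 8.75. A brightness of one probe set cannot be set against that of another as an amount of RNA.

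In the first hours the ribosomal protein genes stayed close to control. No member passed the threshold at 1, 2 or 4 h (limma, Benjamini-Hochberg over all probe sets, adjusted p below 0.05), where 1.2%, 0.392% and 1.45% of all probe sets did. At an unadjusted p below 0.05 there were 7, 1 and 3 members, and limma with its trend and robust options also called 0. At these times the 61 genes had median differences of 0.07, 0.04 and -0.02, beside 0.03, 0.04 and -0.02 over all genes with a single symbol. Averaged over the 3 early times (9 exposed and 9 control arrays), 2 members were higher, where 2.07% of all probe sets were, and 1 was lower, where 3.41% were. The 51 bright canonical members lay between -0.03 and 0.10 in this average.

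**Figure D1:**
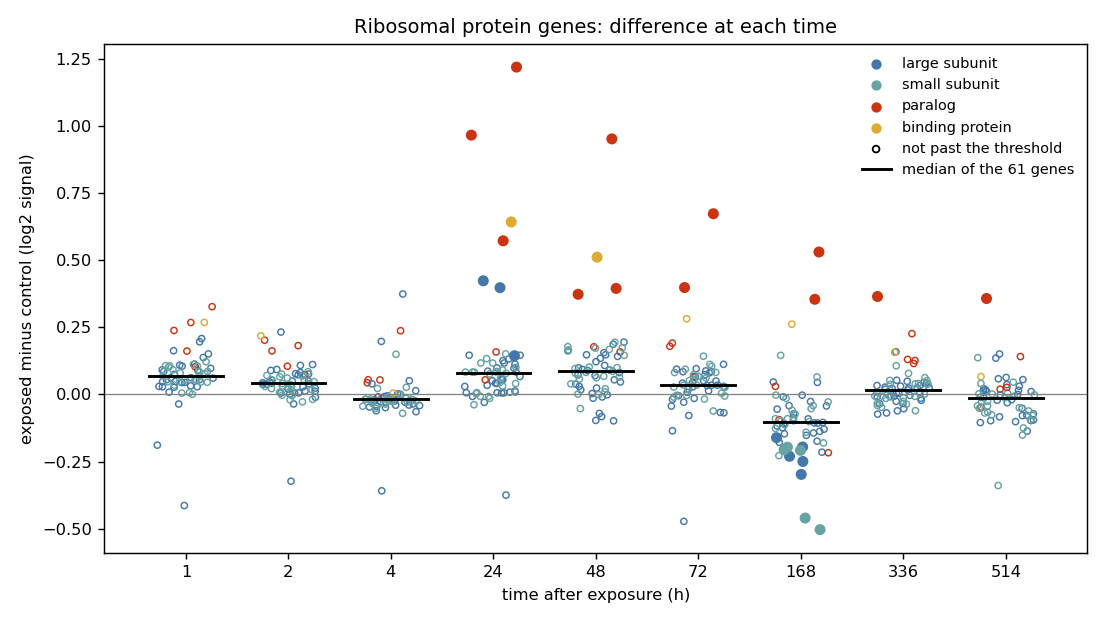
Difference between exposed and control skin (log2 signal, y axis) of each of the 61 genes at each time after exposure (h, x axis), coloured by role; filled points passed the threshold, open points did not, and black bars are medians of the 61 genes. The medians lie between -0.10 (168 h) and 0.09 (48 h), the paralog RPS27L stands highest at 24 h with 1.22, and RPS15 lowest at 168 h with -0.50.

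The early calls concerned RPL26L1, RPL7L1 and RPL37. RPL7L1, a paralog of RPL7 whose protein takes part in making the large subunit, was higher by 0.17 ± 0.05 (SE) with a limma adjusted p of 0.024, and in 9 of 9 comparisons of same-numbered arrays; this call was lost in 3 of the alternatives and without any one of 6 arrays. RPL26L1 was higher by 0.19 ± 0.06 (limma adjusted p = 0.045; 8 of 9), a call that was lost in 6 of the alternatives tried and without any one of 14 arrays. RPL37, a zinc-binding protein of the large subunit measured here by 1 dim probe set, fell by 0.37 ± 0.09 (limma adjusted p = 0.011; lower in 9 of 9), a call lost in the fit on the arrays of this window alone (adjusted p = 0.16). At 1 h it read 8.70, 8.58 and 8.46 in exposed skin and 9.12, 8.75 and 9.12 in control skin, and at 24 h 8.45, 8.54 and 8.37 against 8.76, 8.82 and 8.91. The exposed arrays were the lower ones at both times, without overlap. The paralog RPS27L was at 0.13 ± 0.06 and did not pass (limma adjusted p = 0.26).

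Between 24 and 72 h exposed skin had more signal of 4 of the 5 paralogs, and small differences in canonical members. In the mean of these 3 times 18 of the 61 genes were higher (background 18.2% of all probe sets) and 1 was lower (background 16.9%). Of the 5 paralogs 4 were higher, of the 31 large subunit genes 8 were higher and 1 lower, and of the 24 small subunit genes 5 were higher and 0 lower. The share of members that rose, 29.5%, compares with 30.8% of all genes with a single symbol, a difference that was not tested. The members that fell were 1.64%, against 14.3% of those genes. The median difference was 0.07 for the 61 genes and 0.06 for all genes with a single symbol, so share and median of the members lay near those of all genes. Against the sham arrays the members' median turned to -0.02, with 5 higher and 2 lower, and it was 0.04 after adjustment for the muscle score.

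Most calls fell at 24 h, while the member median was 0.08 at 24 h and 0.09 at 48 h. At 24 h 7 members (11.5%) were higher, where 14.4% of all probe sets and 24.9% of all genes with a single symbol were. At that time 0 were lower, where 12.7% of all probe sets and 11.4% of those genes were. At an unadjusted p below 0.05 limma gave 11 members in either direction. In 32 of 61 genes all 3 exposed arrays were above all 3 control arrays (background 19.9%), and in 2 all were below (background 20.6%). At 48 h 4 members were higher (background 5.84%) and 0 lower (4.11%), and at 72 h 2 were higher (5.4%) and 0 lower (4.25%). Of all genes with a single symbol 11.5% were higher at 48 h and 9.12% at 72 h. The count at 48 h rested on single arrays: it was 13 without control array 3 of that time and 2 without control array 2 or exposed array 3. Over the window the count of 19 members called in either direction became 12 without control array 2 of 48 h, 10 without the 24 h arrays and 7 with the sham arrays as controls.

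RPS27L, the p53-responsive paralog of RPS27, rose most. At 24 h its log2 signals were 12.63, 12.63 and 12.70 in exposed skin and 11.49, 11.41 and 11.39 in control skin, with 11.53 in the sham animal. Each exposed array stood far above each control and the groups did not overlap, a gain of 2.33-fold (difference 1.22 ± 0.11, limma adjusted p = 2.54e-11). At 48 h the exposed arrays read 12.38, 12.37 and 12.25 against 11.26, 11.31 and 11.56, and at 72 h they read 12.37, 12.40 and 12.21 against 11.81, 11.55 and 11.61. The groups did not overlap at either time, and the differences were 0.95 ± 0.11 and 0.67 ± 0.11. At 168 h, with 11.78, 11.75 and 11.88 against 11.30, 11.02 and 11.50, the difference was still 0.53 ± 0.11 (limma adjusted p = 2.74e-04). By 514 h the signals were 11.56, 11.47 and 11.48 in exposed and 11.42, 11.52 and 11.49 in control skin, which overlap. The differences at 24, 48, 72 and 168 h passed the threshold under all alternatives tried and without any one array.

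RPL7L1 was higher for the whole time from 24 h on. At 24 h it read 12.23, 12.15 and 12.11 in exposed skin and 11.16, 11.24 and 11.19 in control skin, a 1.95-fold difference (0.97 ± 0.08, limma adjusted p = 2.84e-11). At 48 h the difference was 0.37 ± 0.08, and at 72 h 0.40 ± 0.08. At 168 h the exposed arrays read 11.35, 11.47 and 11.62 against 11.14, 11.12 and 11.12, at 336 h 11.61, 11.68 and 11.43 against 11.30, 11.10 and 11.23, and at 514 h 11.43, 11.53 and 11.25 against 10.96, 11.06 and 11.10. Exposed and control arrays were apart at each of these 3 times, with differences of 0.35, 0.37 and 0.36 (each ± 0.08). It was the one member called at 336 h, where 2.38% of all probe sets were higher, and at 514 h, where 3.7% were; the limma adjusted p were 0.0067 and 0.0075. At each of these 2 times the call was lost without either of 2 arrays, exposed array 2 and control array 2 at 336 h, and control array 1 and exposed array 2 at 514 h. The calls of RPL7L1 at 72, 168, 336 and 514 h were each also lost in a fit on the arrays of that time alone.

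RPL26L1, the paralog of RPL26, and RPS19BP1 rose as well. RPL26L1 read 11.15, 11.08 and 11.27 in exposed and 10.51, 10.65 and 10.62 in control skin at 24 h (difference 0.57 ± 0.10, limma adjusted p = 2.75e-05), and 0.40 ± 0.10 separated the groups at 48 h. At 168 h it read 10.44, 10.42 and 10.74 against 10.53, 10.52 and 10.47, so that the groups overlapped again. RPS19BP1, also known as a cofactor of the deacetylase SIRT1, read 10.50, 10.08 and 10.52 against 9.71, 9.72 and 9.74 at 24 h, a 1.56-fold difference (0.64 ± 0.13, limma adjusted p = 2.44e-04). Exposed arrays were clearly apart at 24 h, and by 72 h the groups met, with 10.60, 10.15 and 10.49 against 10.36, 9.84 and 10.19.

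**Figure D2:**
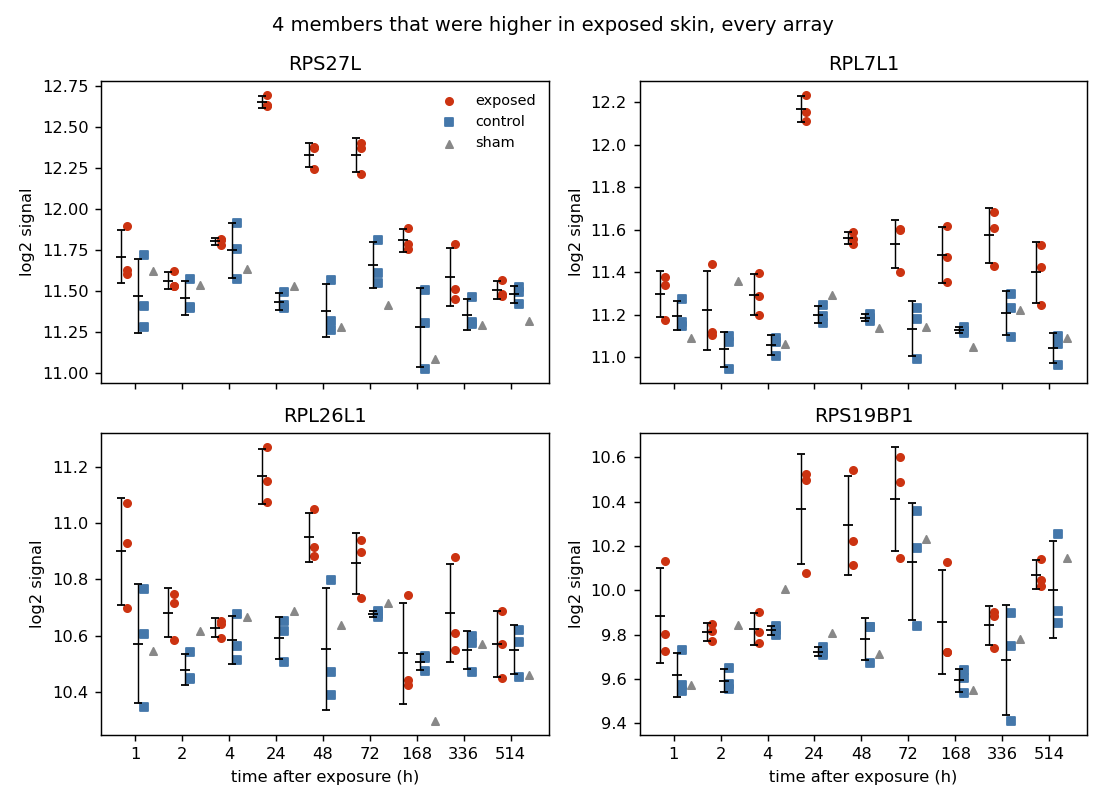
Log2 signal (y axis, a separate range for each panel) of RPS27L, RPL7L1, RPL26L1 and RPS19BP1 on each exposed, control and sham array at each time after exposure (h, x axis); black marks are the mean and SD of the 3 arrays of a group. The exposed arrays of RPS27L and RPL7L1 stand above all control arrays of the same time from 24 to 168 h.

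The other paralogs moved less. RPL22L1, the paralog of RPL22, was higher by 0.17 ± 0.06 over 24 to 72 h (limma adjusted p = 0.032; 8 of 9 comparisons), a call lost in 5 alternatives and without any one of 6 arrays. Against the sham arrays its direction turned, to -0.12. RPL36AL was at 0.10 ± 0.07 and did not pass (limma adjusted p = 0.26).

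Among the canonical large subunit genes, RPL27 showed the clearest rise. At 24 h it read 13.52, 13.69 and 13.64 in exposed skin and 13.31, 13.30 and 13.04 in control skin, a 1.32-fold difference (0.40 ± 0.07, limma adjusted p = 1.06e-05). A second bright probe set of this gene was higher by 0.16 ± 0.04 over 24 to 72 h, beside 0.22 ± 0.04 for the one used. The call of RPL27 over this window was lost with the sham arrays as controls. At 168 h the exposed arrays, 13.17, 13.24 and 13.25, were no longer above the controls, 13.31, 13.26 and 13.23. The other large subunit genes that rose over the window were RPL26 (dim, 0.22), RPL12 (0.13), RPL21 (0.12), RPL15 (0.12), RPL10A (0.10), RPL23 (0.09) and RPL4 (0.09). Their calls were also lost with the sham arrays as controls. Of these genes RPL12 lies at the base of the stalk that recruits elongation factors, and RPL4 lines the exit tunnel. RPL23 is one of the MDM2-binding members, and passed only narrowly (limma adjusted p = 0.0497). Its dimmer probe sets were at -0.0099, which did not pass, and at 0.65, which did. RPL11 and RPL5, the other MDM2-binding members named above, were at -0.02 and -0.07 and did not pass. The call of RPL26 (limma adjusted p = 0.043) was lost in 4 alternatives and without any one of 13 arrays. RPL37 again fell, by 0.32 ± 0.09 (limma adjusted p = 0.0064), and this call was lost when the 24 h arrays were left out.

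Of the small subunit genes, RPSA, which also serves as a laminin receptor at the cell surface, was higher by 0.16 ± 0.04 over 24 to 72 h (limma adjusted p = 0.0026; higher in 9 of 9 comparisons). At 24 h it read 14.06, 14.09 and 14.08 in exposed skin, at 48 h 13.94, 13.89 and 13.91 and at 72 h 13.77, 13.87 and 13.71, beside highest control values of 14.02, 13.82 and 13.65. At each of the 3 times the exposed arrays were thus above all controls, by a small margin, but the sham array of 72 h, at 13.74, lay among them. RPS12 (0.14), RPS19 (0.12), RPS23 (0.10) and RPS2 (0.08) were the others that rose. With the sham arrays as controls the calls of these genes were lost, while that of RPSA held. RPS19 is needed to process the small subunit's RNA, and RPS23 and RPS2 lie near the site where the message is decoded. By the probe sets used, the lowest difference of any small subunit gene in this window was 0.0010 (RPS25). None of the 24 was thus below control in the mean. A dimmer probe set of RPS25 was at -0.92, the 1 called lower among 30 other probe sets of members, where 8 were called higher.

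At 24 h other tissue components moved with these genes. The muscle score was 7.15 to 8.73 in exposed and 10.06 to 11.48 in control arrays, with 0 of 19 muscle genes higher and 2 lower. Keratinocyte differentiation genes were lower in 4 of 5 (list means 10.85 to 11.47 against 12.91 to 12.97), and 12 of 16 neutrophil and macrophage genes were higher (9.69 to 10.00 against 8.43 to 8.52). With the muscle score as a covariate 5 members were higher at 24 h instead of 7, RPS27L by 1.28 and RPL7L1 by 0.95, and over 24 to 72 h 9 were higher and 2 lower. The 24 h median of the members was then 0.0074 in place of 0.08. Of 4 basal keratinocyte genes 3 were lower, and of 8 fibroblast genes 2 were lower (list means 11.36 to 11.67 against 11.79 to 11.92). The part of these other cell types in the differences was not tested.

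Comparisons of a paralog with its parent gene, for 4 pairs in 3 windows each, asked whether the paralog moved apart from it within the same array. The test permuted exposed and control labels within each time (two-sided exact permutation, 8000 relabellings, smallest p 0.00025; adjusted over 12 comparisons), and 8 of 12 passed. At 24 to 72 h the paralog rose more than its parent in all 4 pairs: RPS27L over RPS27 by 0.85, RPL7L1 over RPL7 by 0.60, RPL22L1 over RPL22 by 0.19 and RPL26L1 over RPL26 by 0.16. The exact permutation gave adjusted p of 0.001, 0.001, 0.0053 and 0.040, the first 2 from the smallest p it can give. With 1 replicate number left out, which leaves fewer relabellings, the call of RPL22L1 over RPL22 was lost without number 1 (adjusted p = 0.074) or 2 (0.056), and that of RPL26L1 over RPL26 without number 1 (0.34), 2 (0.056) or 3 (0.056). In the first 2 pairs no exposed array overlapped a control array of the same time. The parents themselves did not pass the threshold in this window, except the dim RPL26: RPS27 was at 0.10, RPL7 at -0.02 and RPL22 at -0.02. RPS27, RPL7 and RPL22 had means of 13.75, 13.73 and 13.47, near the top of the scale, and RPL26 a mean of 6.51, where RMA compresses signals; the part of compression in the gaps was not tested.

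The gaps lasted in part. At 168 to 514 h RPL7L1 stood over RPL7 by 0.41 (exact permutation, adjusted p = 0.001), RPS27L over RPS27 by 0.33 (0.006) and RPL22L1 over RPL22 by 0.16 (0.012), each in at least 7 of 9 comparisons of same-numbered arrays. By the exact permutation the call of RPL22L1 over RPL22 was lost without any one replicate number (adjusted p of 0.095, 0.056 and 0.056), and that of RPS27L over RPS27 without number 2 (0.069). RPS27L itself was at 0.53 at 168 h and at 0.03 at 514 h. Its own limma call over this window was lost without the 168 h arrays. RPL26L1 and RPL26 differed by 0.015 there (exact permutation, adjusted p = 0.90). The parents RPL7, RPS27 and RPL22 were at -0.05, -0.07 and -0.10 over 168 to 514 h and did not pass. RPL22L1 itself was at 0.06 (limma adjusted p = 0.57), so more of its gap lay in RPL22 than in the paralog. At 1 to 4 h RPL7L1 was over RPL7 by 0.19 (exact permutation, adjusted p = 0.008), but a mean over all probe sets of RPL7, of which the second is dim, brought this to 0.013, and the call was lost without any one replicate number (adjusted p of 0.067, 0.086 and 0.056). The other 3 early differences, 0.07, 0.08 and -0.08, did not pass.

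**Figure D3:**
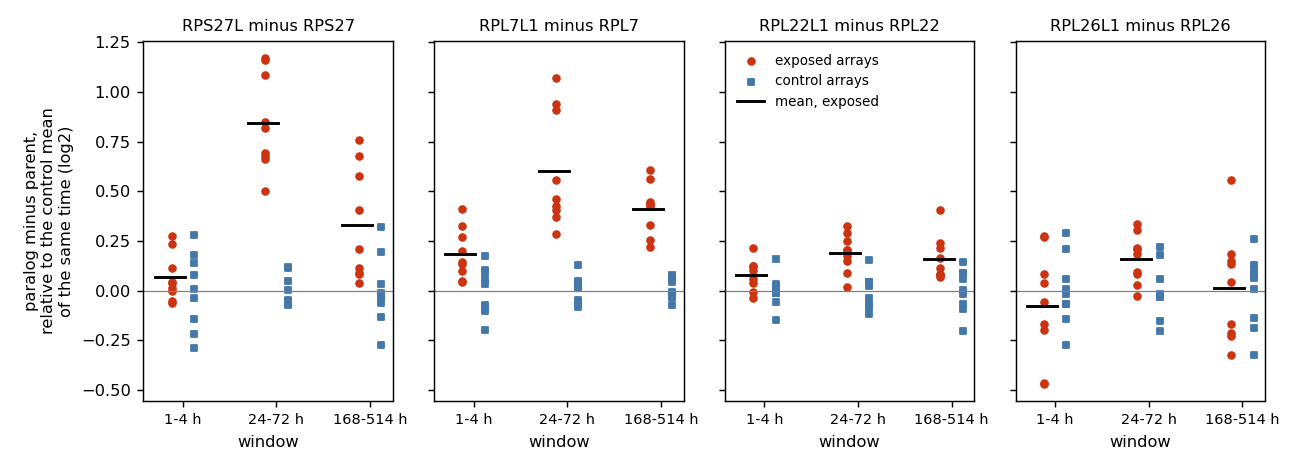
Log2 signal of a paralog minus that of its parent on the same array, set relative to the control mean of the same time (y axis), for exposed arrays (red circles), control arrays (blue squares) and the mean of the exposed arrays (bars) in 3 windows (x axis). The bars at 24 to 72 h lie at 0.85, 0.60, 0.19 and 0.16, and the early bars at 0.07, 0.19, 0.08 and -0.08.

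At 168 h, when the deposited histology scored re-epithelialization as not complete for all 3 exposed arrays, most canonical members were below control. Of the 61 genes 10 were lower (background 8.06%) and 2, RPS27L and RPL7L1, were higher (background 9.87%). The 10 were 5 of the 31 large subunit genes and 5 of the 24 small subunit genes, and none of the 55 canonical genes rose. In 26 members all 3 exposed arrays lay below all 3 control arrays (background 15.3%), and in 3 all lay above (background 17.1%). The median difference of the 55 canonical genes was -0.11, beside 0.01 over all genes with a single symbol. The 122 other probe sets of this brightness had a median of -0.08, with 26 lower and 8 higher, so bright probe sets in general leaned the same way at that time.

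RPS15, a small subunit protein needed to export the pre-ribosome from the nucleus, fell most. It read 13.07, 12.88 and 13.07 in exposed skin at 168 h, against 13.52, 13.57 and 13.45 in control skin and 13.47 in the sham animal. These were the 3 lowest of its 63 values, and the groups were far apart: a fall of 0.50 ± 0.06 or 1.42-fold (limma adjusted p = 2.35e-07). At 72 h it had read 13.54, 13.59 and 13.44 against 13.57, 13.43 and 13.52, and at 336 h it read 13.39, 13.54 and 13.45 against 13.51, 13.51 and 13.55, so both neighbouring times overlapped.

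RPS25, which is known to support initiation at internal ribosome entry sites, followed the same course. Its exposed values at 168 h were 12.82, 12.64 and 12.83, against 13.32, 13.28 and 13.08 in control skin and 13.19 in the sham animal, again without overlap (fall of 0.46 ± 0.08, limma adjusted p = 9.82e-05). A dimmer probe set of RPS25 (mean 8.62) fell by 0.92 ± 0.11 at 24 to 72 h, when the one used was at 0.0010, so the probe sets of this gene disagree there. When its 3 probe sets were averaged, the fall at 168 h did not pass.

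The falls of the large subunit genes were smaller. RPL13 read 13.08, 12.98 and 13.12 against 13.34, 13.37 and 13.36 (fall of 0.30 ± 0.07, limma adjusted p = 0.0028), and RPL11, the MDM2-binding member, 13.52, 13.61 and 13.44 against 13.81, 13.82 and 13.69 (fall of 0.25 ± 0.07, limma adjusted p = 0.0095). RPL22 read 13.21, 13.17 and 13.20 against 13.44, 13.47 and 13.36, and fell by 0.23 ± 0.07. RPS24, RPS16, RPS10, RPL34 and RPL4 fell by 0.21, 0.21, 0.20, 0.20 and 0.16. RPL4 had been higher at 24 h by 0.14 ± 0.05 (limma adjusted p = 0.038), but a difference of its response among the 9 times did not pass (moderated F, limma adjusted p = 0.098).

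**Figure D4:**
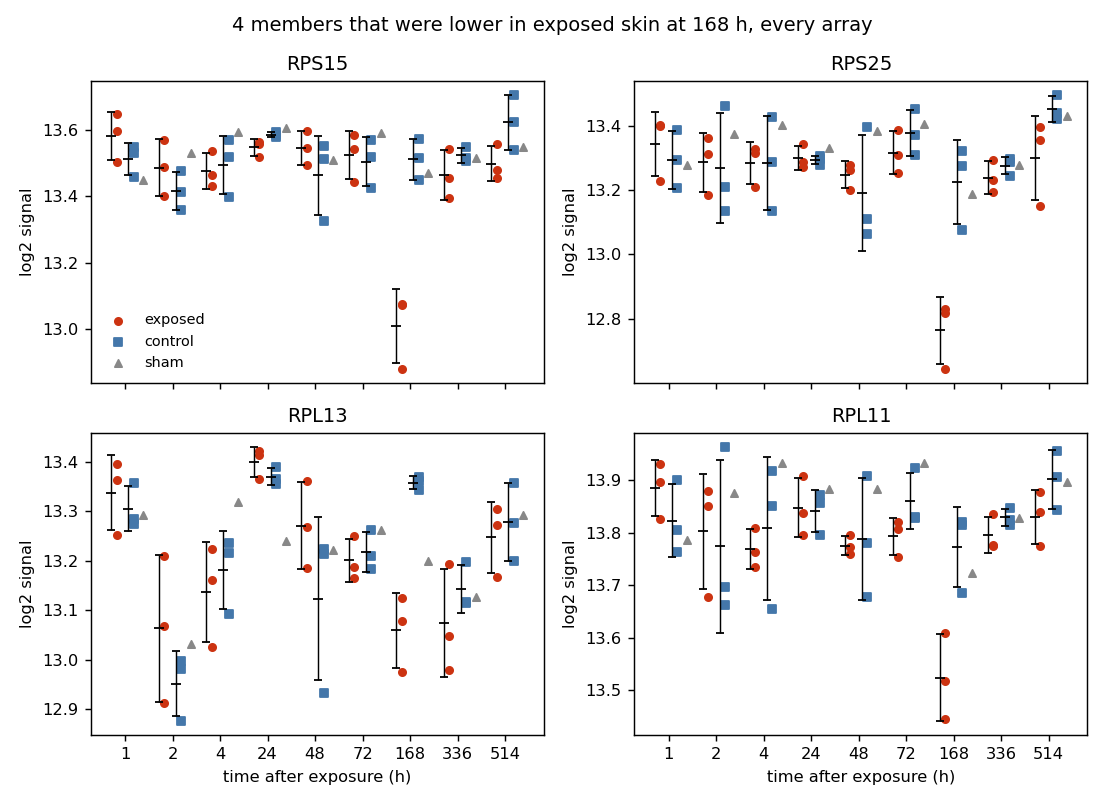
Log2 signal (y axis, a separate range for each panel) of RPS15, RPS25, RPL13 and RPL11 on each exposed, control and sham array at each time after exposure (h, x axis); black marks are the mean and SD of the 3 arrays of a group. The 3 exposed arrays at 168 h, with 12.88 to 13.07 for RPS15, lie below all control arrays of that time in each panel.

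Other measures moved with the fall at 168 h. The muscle score was 7.05 to 7.10 in exposed arrays and 7.26, 7.26 and 13.27 in control arrays, the muscle-rich one being control array 3. With the muscle score as a covariate the count of lower members rose from 10 to 20, with RPS15 at -0.54 and RPS25 at -0.51. Keratinocyte differentiation genes were lower in 4 of 5 (list means 9.03 to 9.71 against 12.98 to 13.15), 15 of 16 neutrophil and macrophage genes were higher (9.71 to 10.31 against 8.20 to 8.34), and 8 of 9 cell cycle genes were higher. For the control gene GAPDH, the signal near the 3' end minus that near the 5' end, which widens in degraded RNA, was 0.13 to 0.31 in exposed and -0.05 to 0.04 in control arrays. The same measure of EF1A overlapped, at 0.12 to 0.18 against 0.05 to 0.23, and so did that of actin. List means were also apart without overlap for basal keratinocytes (7.93 to 8.36 against 8.57 to 8.74), fibroblasts (11.67 to 11.79 against 11.92 to 12.25) and adipocytes (10.62 to 11.04 against 11.27 to 11.84), all lower in exposed skin, as were the 2 erythroid genes (7.62 to 7.85 against 8.07 to 8.13). They were higher for endothelial genes (9.44 to 9.49 against 9.05 to 9.15) and lymphocyte genes (7.37 to 7.68 against 7.02 to 7.11). The part of these cell types and of RNA quality in the fall was not tested.

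The fall was present within each day of in vitro transcription. RPS15 was at -0.53 on one day (2 exposed and 2 control arrays) and at -0.44 on the other (1 and 1), and RPS25 was at -0.44 and -0.49. Without control array 1 of 168 h 5 members were lower, and without control array 2 4 were, while RPS15 and RPS25 passed without any one array. A fit on the arrays of this time alone called 3 members, 2 of them lower. Quantile normalization once more gave 2 lower and 2 higher, and a member median of -0.0086 in place of -0.10, so the shift of the members together depended on the scaling. The 3 times of a window were processed in different periods, so a difference between 168 h and its neighbours cannot be told apart from those periods.

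Over 168 to 514 h together 2 members were higher (background 12%), RPL7L1 and RPS27L, and 5 were lower (background 9.88%): RPS15, RPS25, RPL13, RPL11 and RPL34. Their falls of 0.23, 0.22, 0.13, 0.12 and 0.11 came from 168 h. Without that time 1 member passed, RPL7L1, and none was lower by the test. Counting that setting, calls were lost in 7 alternatives for RPL34, 3 for RPL13, 2 for RPL11, 2 for RPS25 and 1 for RPS15. Those of RPL34, RPL11 and RPL13 were also lost without any one of 11, 6 and 2 arrays. At 336 h 0 members and at 514 h 0 members were lower by limma (backgrounds 1.66% and 2.13%), with 3 and 2 members at an unadjusted p below 0.05 in either direction. The median difference was 0.02 at 336 h and -0.01 at 514 h. The count of 7 called over this window became 4 without exposed array 1 of 336 h or exposed array 2 of 514 h.

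Responses differed between windows in some members. From 1 to 4 h to 24 to 72 h the response grew in 3 members (background 10.1%), RPS27L, RPL7L1 and RPS19BP1, and shrank in 0 (background 6.43%; 7 members at an unadjusted p below 0.05 in either direction by limma). From 24 to 72 h to 168 to 514 h it fell in 9 (background 4%) and grew in 0 (background 4.45%). The 9 were RPS27L, RPL7L1 and RPL26L1 among the paralogs, RPL27, RPL21 and RPL13 of the large subunit and RPS15, RPS25 and RPS12 of the small subunit. This last count ranged from 4 to 14 when single arrays were left out. Across all 9 times, a moderated F test found a difference of response in 7 members (background 18.7%): RPS27L, RPL7L1, RPL26L1, RPS15, RPS25, RPL27 and RPL13. These include 4 of the 55 canonical genes.

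Sham and control skin differed by small amounts in these genes, but not small beside the shift of the members at 24 to 72 h. That shift, a median of 0.07 against control skin, was -0.02 against the sham arrays, with 7 members called in place of 19. No member passed for sham minus control, averaged over the 9 times (limma; 7 at an unadjusted p below 0.05; background 0% higher and 0.0208% lower). The 61 differences ran from -0.06 (RPS27L) to 0.16, with a median of 0.04 for the members and of 0.0017 over all probe sets, and sham arrays had less muscle, with a list median of -1.85 over 19 muscle genes, of which limma called 0 and 17 had an unadjusted p below 0.05.

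Other genes of the ribosome were counted in the same fit, from lists of their roles. The P stalk proteins RPLP0, RPLP1 and RPLP2, which carry elongation factors to the ribosome, and the ribosomal proteins FAU and RACK1 do not match the naming rule. Of these 0 of 5 passed at 24 to 72 h by limma (backgrounds 18.2% higher and 16.9% lower), with 1 at an unadjusted p below 0.05. At 168 h 4 of 5 were lower (background 8.06%), RPLP1 by 0.37 ± 0.06 (limma adjusted p = 3.08e-06), RPLP2 by 0.25, FAU by 0.23 and RPLP0 by 0.16. Of 13 other genes whose messages carry a pyrimidine tract, mostly translation factors, 3 were higher and 3 lower at 24 to 72 h. The backgrounds were 18.2% and 16.9%, and the list median was -0.0009. EIF4B, which assists the helicase of initiation, fell by 0.45 ± 0.09 (limma adjusted p = 6.27e-05), and IPO5, which imports ribosomal proteins into the nucleus, rose by 0.39 ± 0.11 (limma adjusted p = 0.0036).

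Factors that assemble ribosomes were mostly higher. Of 44 ribosome biogenesis genes 36 were higher (background 18.2%) and 1 lower (background 16.9%) at 24 to 72 h, with a median of 0.41. Of the 55 canonical members 13 were higher and 1 lower, with a median of 0.05. At 24 h alone 37 of 44 were higher (background 14.4%), with a median of 0.81. UTP15 and WDR12, factors for the small and the large subunit, rose by 0.90 ± 0.14 and 0.81 ± 0.07, and NOP16 rose by 0.68 ± 0.08. Without the 24 h arrays 16 of 44 were higher, with no share over all probe sets counted beside it. The bright members lie nearer the top of the scale than these genes, and what this does to the contrast was not tested.

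Early on, 5 of the 44 were higher (background 2.07%) and 0 lower (background 3.41%). The small nucleolar protein NOP56 led with 0.51 ± 0.06 (limma adjusted p = 1.93e-08). The transcription factor MYC, which drives ribosome biogenesis genes, was higher by 1.15 ± 0.10 at 1 to 4 h (limma adjusted p = 5.08e-11), when 0 of the 55 canonical members rose. Over 168 to 514 h 11 of the 44 were higher (background 12%) and 1 lower (background 9.88%). Of all genes with a single symbol 18.9% were higher and 10.5% lower there.

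Proteins of the mitochondrial ribosome, which translates the few messages of the mitochondrial genome, were mostly higher at 24 to 72 h. Of 58 genes 46 were higher (background 18.2%) and 0 lower (background 16.9%), with a median of 0.29. At 24 h 45 of 58 rose (background 14.4%), MRPS30 and MRPL35 leading the window with 0.80 ± 0.10 and 0.76 ± 0.07. Over 168 to 514 h 5 were higher and 2 lower. These shares, 8.62% and 3.45%, lay below the backgrounds of 12% and 9.88%. Without the 24 h arrays 19 of 58 were higher, again with no share over all probe sets counted. Of 3 measured genes whose symbols start with RPS6K (RPS6KA1, RPS6KA3 and RPS6KC1), 2 were higher at 24 to 72 h (background 18.2%). These were RPS6KA1 by 1.26 ± 0.12 and RPS6KA3 by 0.25 ± 0.07. Of 7 genes of the TOR pathway and growth control 3 were higher (background 18.2%) and 1 lower (background 16.9%) there. The lower one was TSC2, an inhibitor of TOR, which fell by 0.30 ± 0.09 (limma adjusted p = 0.0061). EIF4E and MYC were among the higher ones. Over 168 to 514 h RHEB was at -0.17 ± 0.04 and SESN1 at -0.30 ± 0.09, both called lower (limma adjusted p = 0.0036 and 0.017). The activity of the pathway was not measured.

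**Figure D5:**
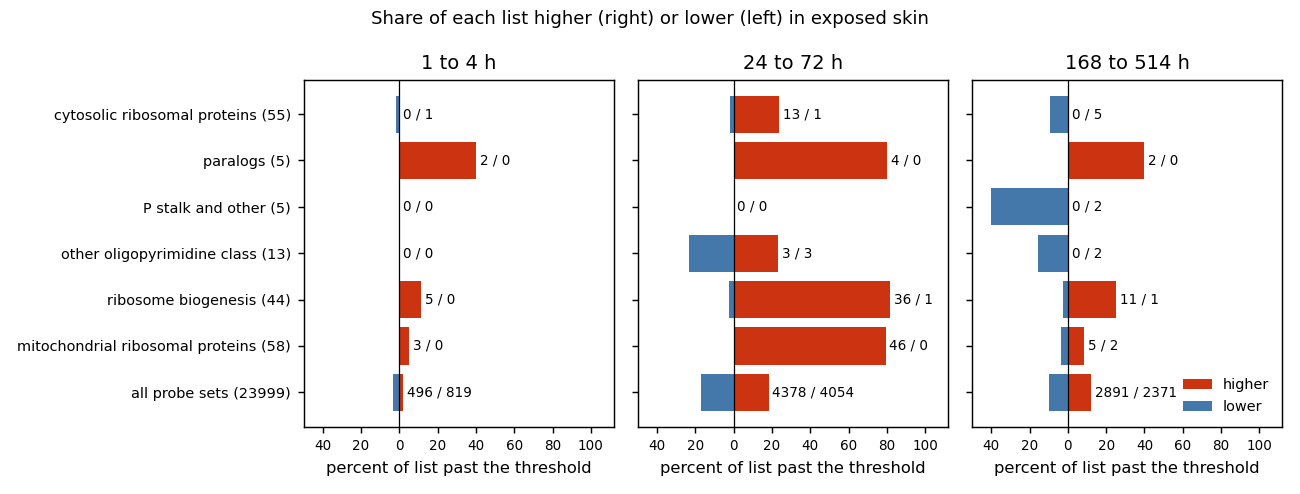
Percent of each list (rows, with the number of genes or probe sets in brackets) that was higher (red, to the right) or lower (blue, to the left) in exposed skin in 3 windows; the numbers beside the bars are counts higher / lower. At 24 to 72 h ribosome biogenesis reaches 81.8% and mitochondrial ribosomal proteins 79.3%, beside 23.6% of the canonical cytosolic members and 18.2% of all probe sets. Of all genes with a single symbol, which are not drawn, 30.8% were higher in that window.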

How the data were processed

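RNA of 63 skin biopsies was measured on Affymetrix porcine arrays. The authors deposited log2 values, 1 for each probe set and array; RMA and Partek are named per the submitters' processing notes, with versions not given in the sources used here. They ran from 4.05 to 14.54, with array medians of 7.75 to 7.86, and were used without further scaling. RMA sets an array's signals relative to each other and compresses dim ones, so a change in total RNA is not measured. Of 24123 probe sets 124 controls were left out. An array has no read depth; 3 arrays a group limit the precision.

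Gene names came from the supplied annotation, which lists 10297 probe sets, 10099 with 1 symbol and 198 with several; 8 of the latter name a ribosomal protein gene and were left out. All 61 member symbols were matched to RefSeq by gene number. A single limma 3.58.1 fit (R 4.3.3) took in the 63 arrays, with a mean for each of 27 groups and with 36 residual and 3.24 prior degrees of freedom. It gave exposed minus control for every time, the averages of these in 3 windows, differences between windows, a moderated F test among the 9 times, and sham minus control. P values were two-sided and adjusted by Benjamini-Hochberg over 23999 probe sets, threshold 0.05. Paralogs were compared with parents by exact permutation. The procedures were tested on simulated data. Alternatives changed normalization, probe set choice, batch terms, muscle, controls, samples and the fit. Named were the 6 largest rises and falls of each window, the 2 largest of each time and the 3 largest of each other contrast past the threshold, paralogs, parents and RPSA, and up to 3 genes per other list; the other members past the threshold are listed as a complete account. The members and lists were chosen with earlier results of these data known.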

Additional observations from a re-analysis of the deposited data

Results flagged for a closer look

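The response, exposed minus control, differed between windows in 3 members for the first difference and 9 for the second by the test of that difference itself (limma, adjusted p below 0.05 over all probe sets); the 3 largest of each are given. From 1 to 4 h to 24 to 72 h it grew by 0.82 ± 0.09 in RPS27L (from 0.13 to 0.95; adjusted p = 1.11e-08), by 0.41 ± 0.07 in RPL7L1 (from 0.17 to 0.58; adjusted p = 4.48e-05) and by 0.31 ± 0.11 in RPS19BP1 (from 0.16 to 0.48; adjusted p = 0.041). The call of RPS19BP1 was lost without any one of 17 arrays, while those of RPS27L and RPL7L1 held without each array left out. From 24 to 72 h to 168 to 514 h the response changed by -0.69 ± 0.09 in RPS27L (adjusted p = 1.44e-06), by -0.32 ± 0.08 in RPL26L1 (adjusted p = 0.010) and by -0.25 ± 0.05 in RPS15 (adjusted p = 0.0017). RPS15 went from 0.02 to -0.23, while RPS27L and RPL26L1 went from 0.95 to 0.26 and from 0.38 to 0.06.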

How the results depend on the processing

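RPS27L and RPL7L1 at 24 h, RPS27L at 48, 72 and 168 h and RPS15 at 168 h passed under all 9 alternatives tried for them and without any one array; of 595 values of named genes under an alternative 531 kept direction and side of the threshold, 45 lost the call, 6 gained one and 13 changed sign. Counts of members past the threshold moved most. Quantile normalization once more gave 9 at 48 h, 4 at 168 h, 2 at 336 h, 1 at 1 to 4 h, 5 for each difference between windows and 3 among the 9 times. Averaging a gene's probe sets gave 12 at 24 h and 5 for the difference from 1 to 4 h to 24 to 72 h, with 0.013 for RPL7L1 minus RPL7 and -0.060 for RPS27L minus RPS27 at 1 to 4 h. Without paralogs, counts were 4 at 24 h, 1 at 48 h, 0 at 72, 336 and 514 h, 1 at 1 to 4 h, 1 for the first difference between windows and 4 among the times. The muscle score as a covariate gave 22 at 168 h, 11 at 24 to 72 h and 16 at 168 to 514 h. Fits on the arrays of a time or window alone gave 2 at 48 h, 3 at 168 h and 0 at 336 h, 514 h and 1 to 4 h, with fewer samples behind the spread. The day of RNA extraction as a term gave 4 among the times. Sham arrays as controls gave 1, 7 and 3 in the windows. A window without its first time, chosen after seeing the data, gave 10 at 24 to 72 h and 1 at 168 to 514 h. Except where fewer samples or genes entered, the cause was not tested.

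When single arrays were left out, counts ran from 0 to 1 at 1 h, 5 to 6 at 24 h, 2 to 13 at 48 h, 6 to 15 at 168 h, 0 to 1 at 336 h and at 514 h, 1 to 4 at 1 to 4 h, 12 to 25 at 24 to 72 h, 4 to 8 at 168 to 514 h, 2 to 5 and 4 to 14 for the differences between windows and 5 to 9 among the times. In window order, RPL22L1 minus RPL22 ran from 0.057 to 0.089, 0.17 to 0.22 and 0.15 to 0.17, and RPL26L1 minus RPL26 from -0.21 to 0.062, 0.12 to 0.18 and -0.077 to 0.065. RPL7L1 minus RPL7 ran from 0.11 to 0.23, 0.58 to 0.64 and 0.37 to 0.45, and RPS27L minus RPS27 from -0.0012 to 0.15, 0.83 to 0.85 and 0.24 to 0.37.

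Changes of sign concerned small values, most of them not called. RPL7 at 1 to 4 h went to 0.16 with the mean of probe sets, to 0.00050 with the muscle score and ran from -0.030 to 0.013 without single arrays, with 0.0043 and 0.011 among them. With sham controls at 1 to 4 h RPL22 was at -0.046, RPS27 at -0.011 and RPSA at -0.039. At 24 to 72 h RPL22L1, called higher against control skin, was at -0.12, RPL36AL at -0.050 and RPS27 at -0.0052, and at 168 to 514 h RPL22L1 was at -0.090, RPL36AL at 0.029 and RPL26 at -0.026. At 168 to 514 h RPL22L1 was at -0.023 with the muscle score and RPL36AL at 0.034 without 168 h. Without single arrays RPL26 ran from -0.0030 to 0.10 at 168 to 514 h, and RPL22 from -0.0051 to 0.050 at 1 to 4 h and from -0.038 to 0.0092 at 24 to 72 h.

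With replicate number as a block, 15 of 15 counts stayed within 1.5 times, with 20 at 24 to 72 h and 15 at 168 h, and 12 of 12 paralog values kept their side. Pairing by number was not established: 21 of 27 same-numbered pairs correlated above 0.1, and 20 of 27 exposed arrays correlated best with their own number. The search for pyrimidine tracts was not run. With 3 arrays a group, small differences of single genes could be missed at this precision. Some of bright members were called, such as that of RPL4 at 24 h (0.14).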
